A study of Rattus norvegicus with 6 samples.

Results

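The genes described here encode the enzymes that make fatty acids from acetyl-CoA and put double bonds into them, with the regulatory protein of this pathway. They are Acly, Acss2, Me1, Acaca, Fasn, Thrsp, Scd, Scd2, Fads1 and Fads2, chosen by symbol for their place in the pathway. All 10 were found among the 18825 genes listed, and all 10 passed the filter on low counts. The lowest count of any of them in a library was 37, for Thrsp, so no gene entered through 1 group alone. Messenger RNA was measured by sequencing in dorsal wounds, cut through the full thickness of the skin, of male Sprague–Dawley rats. All animals were diabetic, from a diet rich in fat and sucrose and then streptozotocin, which destroys insulin-producing beta cells. The 3 control wounds were untreated, and the 3 others received DST-MNs, microneedles that combine dental pulp stem cell spheroids with spermidine and TGF-β3 as their regulators. Microneedles without cells are not among the groups used here, so effects of the needles and of their load cannot be told apart. The labels used here give neither the age of the rats nor the day of collection.

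In cytosolic fatty acid synthesis, citrate that has left the mitochondrion is split into acetyl-CoA, acetyl-CoA is carboxylated to malonyl-CoA, and fatty acid synthase joins these units into palmitate with reducing power from NADPH. Desaturases of the endoplasmic reticulum then turn saturated chains into monounsaturated ones or act on polyunsaturated chains from the diet. In skin the pathway is known from sebaceous glands, whose secretion consists of lipids, and from the fat layer under the dermis. The transcription factors SREBP-1 and ChREBP, encoded by Srebf1 and Mlxipl, are known to drive these genes in lipid-making tissues after feeding and insulin.

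Library totals ran from 12545206 to 13818548 counts. Marker levels of other tissues differed between the libraries. Skeletal muscle markers summed to 9164, 25.0 and 492 TPM (transcript share scaled to 1000000, a level per gene length) in control libraries 1, 2 and 3 and to 7201 to 9100 TPM after treatment. Epidermal keratinocyte markers summed to 42.2 to 217 TPM in controls and to 4607, 413 and 1457 TPM in DST-MNs 1, 2 and 3. In counts scaled between libraries, 9 of 12 markers were higher without overlap of the groups, where 12.9% of all genes tested were. Of these 9, Krt1, Krt15 and Perp passed the filter on low counts through the treated group alone. Control 2 held 4, 0 and 5 counts of them. Of the 12, 0 passed the adjusted threshold of the test described below. Fibroblast markers such as Col1a1 were abundant in every library, at 24188 to 36085 TPM in sum. Of 8 such markers, 1 had a higher estimate in treated wounds and 7 a lower one, where 50.5% of all genes tested were higher. Their median log2 change (treated over control) was -0.22, and 0 passed the adjusted threshold. Tissue was sequenced in bulk, so more cells of a type and more RNA per cell cannot be told apart.

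Scd, a desaturase, and Fasn, the fatty acid synthase, had the highest fold estimates of the 10 genes with all libraries in the fit, followed by Thrsp, which was above Fasn without control 1, DST-MNs 2 or DST-MNs 3. Fasn was 2.95-fold higher in treated wounds (95% interval 1.99 to 4.37) and Scd 9.47-fold higher (1.97 to 45.5), with n = 3 libraries in each group. Only Fasn passed the test over all genes (adjusted p = 0.0499 by the quasi-likelihood method of edgeR, adjusted after Benjamini and Hochberg). Thus 1 of 10 genes was called higher and 0 lower, beside 0.658% higher and 0.118% lower of the 14427 genes tested. At an unadjusted p below 0.05, 7 of the 10 were higher and 1 lower, where 9.80% and 6.88% of all genes were. The median log2 change was 0.62 over the 10 genes and 0.00 over all genes tested (log2 of treated over control). Adjusted p-values below come from this fit unless another tool is named. DESeq2 called 4 of the 10 higher, Fasn, Me1, Scd and Acss2, beside 4.36% of the genes it could adjust. Leaving out control 1 kept the call of Fasn, and leaving out any of the other 5 libraries lost it, at adjusted p of 0.0707 to 0.162 and log2 changes of 1.44 to 1.71. The call was also lost with DESeq2 size factors (adjusted p = 0.0524), with limma-voom (0.0519) and with at least 10 counts asked of every library (0.0624), and 0 of the 10 genes were called in each of these fits.

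**Figure D1:**
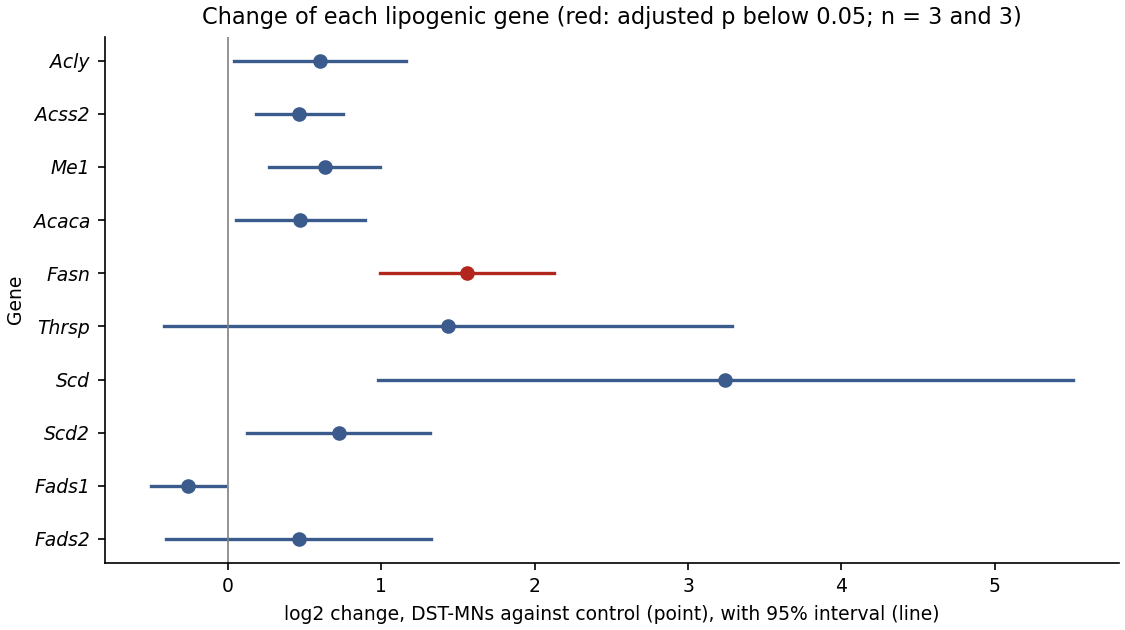
Log2 change of each lipogenic gene (points) with its 95% interval (lines), treated against control wounds, n = 3 libraries each. Scd has the highest estimate, 3.24, and the widest interval; Fasn, in red, is the gene past the adjusted threshold, and Fads1 lies below 0.

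The enzymes that supply acetyl-CoA and NADPH differed by smaller amounts. Acly (gene ID 24159) encodes ATP citrate lyase, which makes cytosolic acetyl-CoA from citrate. Its level was 23.8, 31.4 and 43.2 TPM in control libraries 1, 2 and 3 and 65.2, 42.3 and 56.0 TPM in DST-MNs 1, 2 and 3. The groups overlapped, since control 3 lay above DST-MNs 2. The log2 change was 0.60 (SE 0.24, with an adjusted p of 0.274). Acss2 (311569) encodes the cytosolic synthetase that makes acetyl-CoA from acetate. It stood at 18.1, 19.97 and 17.1 TPM in the controls and at 31.2, 26.4 and 26.9 TPM after treatment, with no overlap. This was a log2 change of 0.46 (SE 0.12, with an adjusted p of 0.153), and DESeq2 gave an adjusted p of 0.0485. Me1 (24552) encodes cytosolic malic enzyme, a source of NADPH. It was evenly higher in the treated libraries, at 52.8, 57.3 and 52.8 TPM against 25.0, 32.8 and 37.8 TPM in the controls. Me1 had a log2 change of 0.63 (SE 0.15) with an adjusted p of 0.134, or 0.00644 with DESeq2.

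The carboxylase and the synthase, which act in turn, had unlike estimates. Acaca (60581) encodes acetyl-CoA carboxylase alpha, which makes malonyl-CoA and commits carbon to the pathway. It was the least abundant of the 10 genes in both groups, at 4.37, 4.39 and 5.95 TPM in controls and 9.68, 6.96 and 6.06 TPM after treatment. The groups came close without overlapping, and the log2 change was 0.47 (SE 0.18, with an adjusted p of 0.258). Fasn (50671) encodes the synthase itself. It stood at 6.77, 11.4 and 12.2 TPM in the controls and at 40.0, 26.9 and 31.9 TPM in the treated wounds, so that every treated library exceeded every control by a wide margin. Fasn transcripts outnumbered Acaca transcripts by 1.55, 2.59 and 2.05 to 1 in control libraries 1, 2 and 3 and by 4.13, 3.87 and 5.26 to 1 in DST-MNs 1, 2 and 3. The ratio of Fasn to Acly was 0.282 to 0.363 in controls and 0.569 to 0.636 after treatment. Both ratios were computed after the levels had been seen, do not depend on scaling between libraries and were given no test.

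Thrsp (25357), also known as Spot 14, encodes a nuclear and cytosolic protein that promotes lipogenesis in liver and fat. It varied among the libraries of a group more than any other of the 10 genes in the treated wounds. Its level was 17.7, 3.71 and 7.90 TPM in controls and 59.7, 9.30 and 21.8 TPM after treatment, with overlapping groups. The highest treated library held 6.17 times the normalised CPM (counts per 1000000, scaled with TMM factors) of the lowest, and in controls the factor was 4.90, whereas the median gene had 1.38 and 1.30. The log2 change of 1.44 had an SE of 0.78 and an interval from -0.42 to 3.29 (adjusted p = 0.406). It was 0.57 without DST-MNs 1 and 2.23 without control 1. Thrsp was highest in replicate 1 and lowest in replicate 2 of both groups, an order shared by the fat cell hormone gene Adipoq and by the keratinocyte genes Krt14 and Krt5. Adipoq stood at 35.9, 8.55 and 20.7 TPM in controls and 131, 7.41 and 18.0 TPM after treatment. Krt14 stood at 100, 6.90 and 85.5 TPM in controls and 1913, 119 and 727 TPM after treatment. The sums of both marker lists had this order in the treated libraries but not in the controls. In control libraries 1, 2 and 3 they were 2898, 2780 and 2285 TPM for adipocyte markers and 213, 42.2 and 217 TPM for keratinocyte markers. The part of fat tissue or epidermis in the Thrsp values was not tested.

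**Figure D2:**
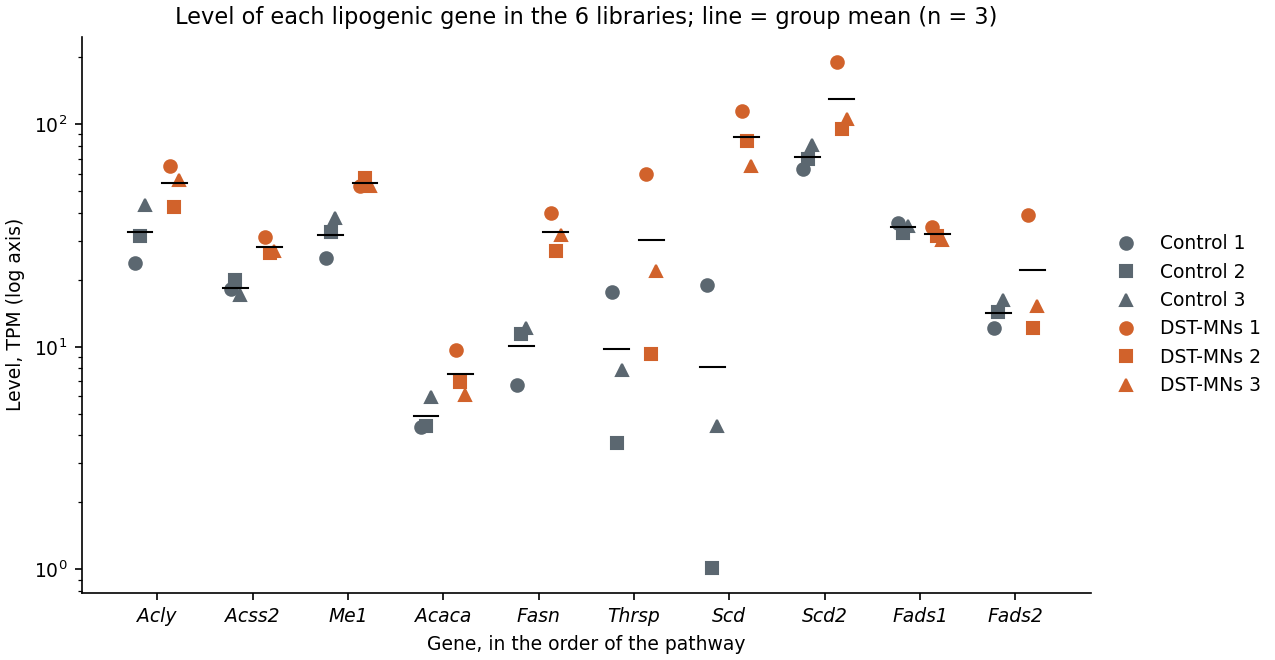
Level of the 10 genes in each library in TPM on a log axis, in the order of the pathway, with controls in grey, treated wounds in orange and group means as lines (n = 3). Scd lies at 1.02 to 19.0 TPM in controls and at 65.3 to 115 TPM after treatment, while the Fads1 values of both groups lie together.

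Scd and Scd2 both encode stearoyl-CoA desaturases, which place the double bond that turns stearate into oleate, and their levels and estimated changes were unlike. Scd2 (83792) was the most abundant of the 10 genes in both groups. It stood at 62.8, 69.5 and 80.7 TPM in controls and at 190, 95.7 and 105 TPM after treatment, with no overlap and DST-MNs 1 far above the rest. Its log2 change was 0.72 (SE 0.25, with an adjusted p of 0.230), and 0.40 without DST-MNs 1. Scd (246074) was at 19.0, 1.02 and 4.43 TPM in control libraries 1, 2 and 3, and at 115, 83.8 and 65.3 TPM in DST-MNs 1, 2 and 3. In counts these were 917, 48 and 200 against 5135, 3664 and 2952. The groups were well apart, but the control libraries spanned a 19.0-fold range of normalised CPM. The log2 change of 3.24 (SE 0.95) had an adjusted p of 0.179. Without control 1 the log2 change was 4.88 and passed the test (adjusted p = 0.0300). Without control 2 or control 3 it was 2.72 or 2.93 and did not pass (adjusted p = 0.292 and 0.411). The muscle marker sums of 9164, 25.0 and 492 TPM in the controls had the same order as Scd, and that of control 1 was at the treated level. Adipoq, at 35.9, 8.55 and 20.7 TPM, and Krt14, at 100, 6.90 and 85.5 TPM, had this order in the controls too. The sums of the adipocyte markers, 2898, 2780 and 2285 TPM, and of the keratinocyte markers, 213, 42.2 and 217 TPM, did not. In DST-MNs 1, 2 and 3 the muscle sums were 8070, 9100 and 7201 TPM, in another order than Scd. Adipoq and Krt14 did not have the order of Scd in the treated libraries either. The part of muscle, fat tissue or epidermis in the Scd values was not tested. DESeq2 called Scd with all libraries (adjusted p = 0.0366). By mean TPM Scd was the ninth of the 10 genes in controls and the second after treatment.

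The balance between the desaturases can be read within each library. Scd made up 23.2%, 1.45% and 5.21% of the summed TPM of Scd and Scd2 in control libraries 1, 2 and 3, and 37.6%, 46.7% and 38.3% in DST-MNs 1, 2 and 3. The mean share was 9.96% ± 11.6 in controls and 40.9% ± 5.06 after treatment (SD, n = 3). The difference of 30.9 percentage points had an exact two-sided permutation p of 0.1, the smallest that 3 against 3 libraries allow, and 0.3 after adjustment over the 3 shares compared. Only 1 of the counts of these 2 genes was fractional, that of Scd in DST-MNs 2; how reads that fit both genes were assigned is not given in the sources used here, so the split between them is uncertain to that extent.

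**Figure D3:**
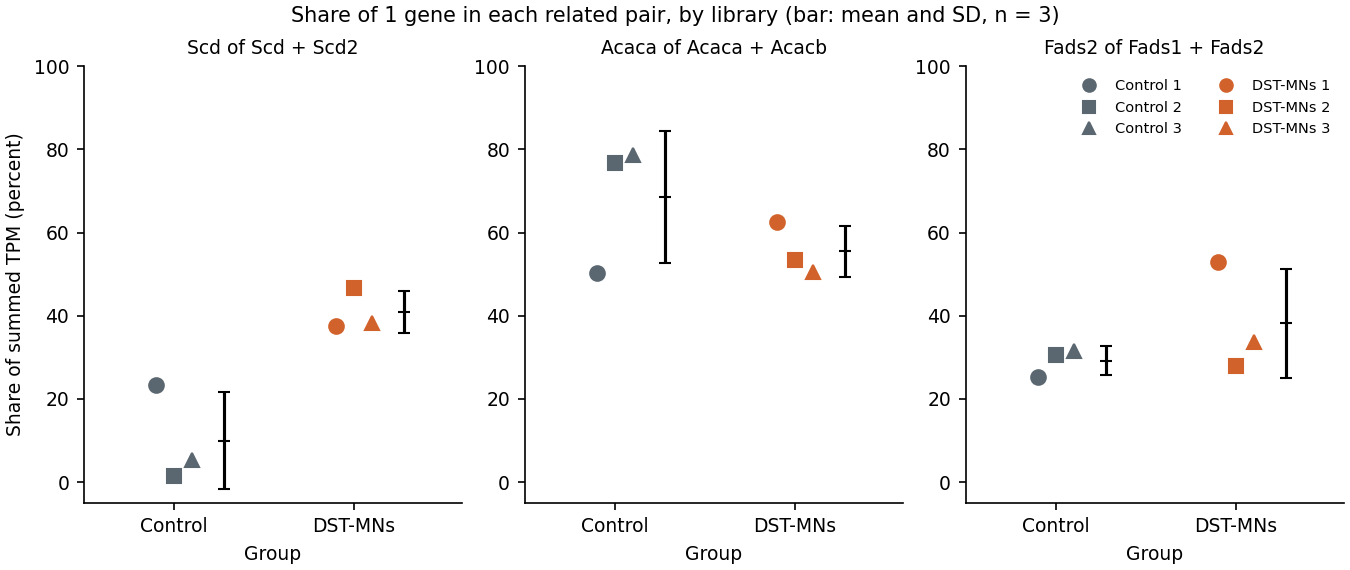
Share of Scd in Scd and Scd2, of Acaca in Acaca and Acacb, and of Fads2 in Fads1 and Fads2, as percent of summed TPM in each library, with mean and SD (n = 3). The Scd share is above 37% in all treated libraries and at most 23.2% in controls, while the groups overlap in both other pairs.

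The start regions of the desaturase genes are shown because the estimated changes within these pairs of related enzymes were unlike. The sequences are RefSeq promoters of the rat assembly GRCr8, each from 250 bases before to 50 after the gene's start, 5′ to 3′ on the gene's strand, whereas the counts refer to mRatBN7.2. Capitals mark CCAAT, the box bound by NF-Y, or GGGCGG, the GC box bound by SP1, on either strand. Scd lies at chr1:253231682-253231981 on the minus strand and Scd2 at chr1:253118127-253118426 on the plus strand. Fads1 lies at chr1:216252442-216252741 on the plus strand and Fads2 at chr1:216171984-216172283 on the minus strand.
Scd: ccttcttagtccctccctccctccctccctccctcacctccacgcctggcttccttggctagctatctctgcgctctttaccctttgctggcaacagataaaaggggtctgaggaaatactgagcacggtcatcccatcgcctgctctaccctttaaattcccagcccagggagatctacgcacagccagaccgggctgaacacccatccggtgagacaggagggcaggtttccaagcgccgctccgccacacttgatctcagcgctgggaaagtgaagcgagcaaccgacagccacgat
Scd2: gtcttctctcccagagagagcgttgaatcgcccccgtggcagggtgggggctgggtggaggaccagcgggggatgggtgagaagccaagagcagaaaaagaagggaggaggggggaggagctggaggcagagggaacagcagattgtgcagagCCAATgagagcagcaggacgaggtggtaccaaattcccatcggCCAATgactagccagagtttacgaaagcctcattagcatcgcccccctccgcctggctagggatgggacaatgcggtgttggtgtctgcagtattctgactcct
Fads1: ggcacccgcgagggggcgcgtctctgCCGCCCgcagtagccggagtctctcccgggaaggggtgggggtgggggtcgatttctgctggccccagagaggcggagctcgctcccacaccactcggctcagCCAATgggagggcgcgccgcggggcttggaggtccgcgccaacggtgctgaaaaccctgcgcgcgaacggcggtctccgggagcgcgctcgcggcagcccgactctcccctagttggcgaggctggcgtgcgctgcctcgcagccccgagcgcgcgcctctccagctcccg
Fads2: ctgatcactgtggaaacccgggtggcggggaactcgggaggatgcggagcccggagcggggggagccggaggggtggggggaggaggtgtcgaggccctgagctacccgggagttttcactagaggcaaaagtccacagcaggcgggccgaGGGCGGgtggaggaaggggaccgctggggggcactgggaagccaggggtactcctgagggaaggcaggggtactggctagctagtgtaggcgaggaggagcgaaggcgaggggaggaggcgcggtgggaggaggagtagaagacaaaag

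None of these letters occurred in the Scd window, while Scd2 held the NF-Y box at 2 places. Promoters were found for 8 of the 10 genes, without Fasn and Acaca. Of the 8, the NF-Y box was present in 5, Thrsp, Fads1, Scd2, Acss2 and Acly, and in 37.5% of all 33469 promoters of the table. The GC box was present in 6 of the 8, at 5 places each in Acss2 and Me1, and in 33.1% of all. The core of the sterol response element, TCACCCCA, and the E-box CACGTG, to which SREBP proteins are known to bind, were in 0 of the 8 windows, and in 1.37% and 6.42% of all promoters. No matches overlapped. These are letter matches within 300 bases and say nothing of binding elsewhere.

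The front-end desaturases, which act on polyunsaturated chains, showed no call. Fads1 (84575) encodes the delta-5 desaturase that makes arachidonate. In normalised CPM it varied least of the 10 genes within each group. It stood at 36.1, 32.4 and 35.1 TPM in controls and 34.7, 31.3 and 30.2 TPM after treatment, and it was the only gene of the 10 with a negative change. In normalised CPM it stood at 86.3 ± 6.33 in controls and 72.0 ± 2.15 after treatment (SD, n = 3), without overlap, whereas in TPM the groups overlapped. The log2 change was -0.26 (SE 0.10, interval -0.50 to -0.02, adjusted p = 0.275). With total counts in place of TMM factors it was -0.14 while the median of all genes moved to 0.12. Fads2 (83512) encodes the delta-6 desaturase, the first step of that route. It stood at 12.1, 14.3 and 16.2 TPM in controls and at 39.1, 12.1 and 15.3 TPM after treatment. In TPM only DST-MNs 1 lay above the controls. In normalised CPM DST-MNs 3 did too, at 28.7 against 28.3 in control 3. Without DST-MNs 1 the log2 change of 0.46 (SE 0.36, with an adjusted p of 0.565) turned to -0.078. Fads2 made up 25.2% to 31.6% of the summed TPM of both genes in controls and 53.0%, 27.9% and 33.6% after treatment (difference 9.04 points, exact two-sided permutation p = 0.4, adjusted 0.4). Without DST-MNs 1 the difference was 1.62 points.

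Across the 10 genes, 6 had every treated library above every control in normalised CPM, namely Fasn, Acaca, Me1, Scd, Scd2 and Acss2, where 12.9% of all genes tested did. With Fads1, which had every treated library below, 7 of 10 did not overlap, and over all genes 22.9% did not. In summed TPM the 10 genes reached 226, 221 and 261 among controls, and 638, 392 and 411 among treated libraries 1, 2 and 3. Of the difference between the group means, Scd gave 32.6%, Scd2 24.3% and Fasn 9.32%. Without Scd the other genes summed to 207 to 256 TPM in controls and 308 to 523 TPM after treatment. In normalised CPM, DST-MNs 1 was the highest treated library for 9 of the 10 genes, all but Me1. Among controls, replicate 3 was highest for 6 genes, while replicate 1 was highest for Scd, Thrsp and Fads1. In the mean of the controls the order of levels from the highest was Scd2, Fads1, Acly, Me1, Acss2, Fads2, Fasn, Thrsp, Scd and Acaca. Fads1, Acly and Me1 differed by less than the spread of Acly and Me1 there, at 34.5 ± 1.89, 32.8 ± 9.77 and 31.9 ± 6.48 TPM, and so did Fasn, Thrsp and Scd, at 10.1 ± 2.93, 9.77 ± 7.19 and 8.15 ± 9.55 TPM. After treatment Acly and Me1 lay together at 54.5 ± 11.5 and 54.3 ± 2.62 TPM, and so did Fasn, Fads1 and Thrsp at 32.9 ± 6.60, 32.1 ± 2.33 and 30.3 ± 26.2 TPM.

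Genes that surround these steps were read from 7 lists of the pathway with 75 genes, of which 74 had enough counts. Of these, 3 were called higher and 0 lower, beside 0.658% and 0.118% of all genes tested. They were Elovl7 and Elovl1 in elongation and Fads6, nearly without counts in controls, among the desaturases. DESeq2 called 7 of the list genes higher and 1 lower, beside 4.36% higher of the genes it could adjust. Of those 14343 genes, it called 626 higher and 1018 in either direction. At an unadjusted p below 0.05, 9.80% of all genes tested were higher and 6.88% lower, to be read beside each list below. Citrate and acetyl-CoA supply had 0 of 11 genes called, 2 higher at an unadjusted p below 0.05, and a median log2 change of 0.20. The mitochondrial citrate carrier Slc25a1, which feeds Acly, was at 25.8, 30.4 and 32.9 TPM in controls and 52.5, 38.5 and 44.2 TPM after treatment (log2 change 0.45, SE 0.14, with adjusted p = 0.201). Pyruvate carboxylase, Pc, had a log2 change of 1.11 (SE 0.33, with an adjusted p of 0.181). Slc25a10, a dicarboxylate carrier, and Pdhb, a subunit of pyruvate dehydrogenase, had changes of 0.31 and 0.29. For cytosolic NADPH the list had 0 of 8 called, 1 lower at an unadjusted p below 0.05, and a median of -0.02. Pgd and Taldo1 of the pentose phosphate route had changes of -0.29 and -0.26, and Aldh1l1, a folate enzyme that makes NADPH, one of 1.23 (SE 0.61). Omitting control 1 took Aldh1l1 to 2.25, which passed (adjusted p = 0.0491). Without control 2 or control 3 the change of Aldh1l1 was 0.87 or 0.94 and did not pass (adjusted p = 0.712 and 0.644). H6pd, which makes NADPH inside the endoplasmic reticulum, had one of -0.38 (SE 0.16).

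For acetyl-CoA carboxylase the list had 0 of 10 called, 3 higher at an unadjusted p below 0.05, and a median log2 change of 0.16. Acacb encodes the mitochondrial isoform, whose product restrains fatty acid oxidation. It stood at 4.34, 1.33 and 1.62 TPM in controls and at 5.81, 6.10 and 5.91 TPM after treatment, a log2 change of 1.12 (SE 0.46) that did not pass (adjusted p = 0.297). With control 1 left out it was 1.90 and passed (adjusted p = 0.0141). Leaving out control 2 or control 3 gave 0.81 or 0.86, which did not pass (adjusted p = 0.641 and 0.567). Acaca thus made up 50.2%, 76.7% and 78.6% of both isoforms in control libraries 1, 2 and 3 and 62.5%, 53.3% and 50.6% in DST-MNs 1, 2 and 3. The difference was -13.0 points (exact two-sided permutation p = 0.4, adjusted 0.4), or -22.2 points without control 1, -8.92 without control 2 and -7.99 without control 3. Control 1, with an Acaca share near those of the treated wounds, was also the control with muscle markers at the treated level. The part of muscle in this share was not tested. Mid1ip1, a relative of Thrsp that promotes polymerisation of the carboxylase, had a log2 change of 0.42 (SE 0.13, with an adjusted p of 0.195). Of the kinase subunits that restrain the enzyme, Prkab2 had a change of 0.58 (SE 0.23) and Prkaa2 one of 1.41 (SE 1.06). Prkaa2 had 261, 7 and 32 counts in controls and 260, 386 and 198 after treatment, so it passed the count filter through the treated group alone. In the fit that omits control 1, its log2 change was 3.75 and passed (adjusted p = 0.0490). Without control 2 or control 3 it was 0.86 or 0.99, with an adjusted p of 0.79 in both fits. Mitochondrial fatty acid synthesis, which serves lipoate, had 0 of 8 called, 0 at an unadjusted p below 0.05 and a median of 0.17. There Mcat, Lias, Mecr and Cbr4 had log2 changes of 0.45, 0.36, 0.28 and -0.26.

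Among other desaturases and their electron donors 1 of 9 measured genes was called higher, with 3 higher and 1 lower at an unadjusted p below 0.05 and a median of 0.33. Fads6, named for its likeness to the fatty acid desaturases, rose from 0.129 ± 0.0900 to 3.79 ± 0.115 normalised CPM (SD, n = 3), with 1, 1 and 3 counts in the controls and 54, 51 and 50 after treatment. It thus passed the count filter through the treated group alone, and with at least 10 counts asked of every library it was not tested. Its log2 change was 4.78 (SE 0.45, with an adjusted p of 0.0125), and it was called in 2 of the 6 fits that omit a library, those without control 1 and without control 3 (adjusted p of up to 0.0823 in the others). Fads3, a neighbour of Fads1 and Fads2 in sequence, had a change of -0.93 (SE 0.29, with an adjusted p of 0.199). The donors Cyb5b and Cyb5r2 had changes of 0.47 (SE 0.16) and 1.61 (SE 0.45). With 11.0, 8 and 4.86 estimated counts in controls, Cyb5r2 also passed the count filter through the treated group alone. Elongation, the step beside desaturation, had 2 of 13 genes called higher, beside 0.658% of all genes tested. At an unadjusted p below 0.05 it had 7 higher and 1 lower, beside 9.80% and 6.88% of all genes, and its median was 0.65. Elovl7, an elongase of long acyl chains, rose from 2.56 ± 0.350 to 28.6 ± 5.88 CPM (log2 change 3.48, SE 0.23, with adjusted p = 0.00424) and was called in all 15 alternative fits. Elovl1, an elongase of saturated long chains, rose from 102 ± 1.82 to 161 ± 7.40 CPM (log2 change 0.65, SE 0.10, with adjusted p = 0.0480). Without any 1 of the 6 libraries it was no longer called (adjusted p of up to 0.239). Elovl5, which elongates the products of Fads2, had a change of 0.68 (SE 0.12, with an adjusted p of 0.0723) and Hacd2, a dehydratase of the cycle, one of 1.09 (SE 0.17, with an adjusted p of 0.0519). Elovl6 elongates palmitate, the product of Fasn, and had one of 0.81 (SE 0.47, with an adjusted p of 0.442), with 0.26 in the absence of DST-MNs 1 and 0.50 in that of control 1.

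The lipogenic transcription factors and sterol sensors had 0 of 15 genes called, with 2 higher and 1 lower at an unadjusted p below 0.05 and a median of 0.05. Srebf1 stood at 8.90, 6.49 and 7.93 TPM in controls and 21.4, 10.9 and 10.8 TPM after treatment. The groups did not overlap, with DST-MNs 1 far above the others, and the log2 change was 0.71 (SE 0.28, with an adjusted p of 0.271), and with DST-MNs 1 omitted it was 0.35. Mlxipl was scarce, at 15, 2 and 2 counts in controls and 49, 29 and 16 after treatment. It thus passed the count filter through the treated group alone. Its log2 change was 2.18 (SE 0.81, with adjusted p = 0.254). It was 3.78 if control 1 is omitted, and 1.76 if control 2 or control 3 is. Insig1, which holds SREBP proteins in the endoplasmic reticulum, had a change of -0.37 (SE 0.12, with an adjusted p of 0.202) and Scap, which escorts them, one of 0.26 (SE 0.15). Nr1h3, the liver X receptor alpha, had one of -0.04 (SE 0.21, with an adjusted p of 0.948).

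Cell types that make fatty acids were followed through their markers. Of 12 sebaceous markers 6 were called higher, Elovl4, Cyp2b12, Krt79, Awat1, Awat2 and Dgat2l6, beside 0.658% of all genes tested. Awat1, a wax synthase of the gland, had 3, 0 and 5 counts in controls and 407, 416 and 255 after treatment. The melanocortin receptor Mc5r, not called (adjusted p = 0.0900), had 8, 0 and 3 against 69, 58 and 65. Both Awat1 and Mc5r passed the count filter through the treated group alone. So did the called markers Cyp2b12, with 5, 0 and 5 counts in controls, Awat2, with 8, 0 and 3, and Dgat2l6, with 0, 1 and 1. Elovl4, with 14, 9 and 29 counts in controls, also passed it through the treated group alone. Krt79, with 15, 14 and 41, had enough counts in both groups. The list summed to 228 to 270 TPM in controls and 788 to 816 TPM after treatment. Most of the control sum was Plin2, which other cells also hold, at 189 to 249 TPM in controls and 131 to 229 TPM after treatment (log2 change -0.43). Without Plin2 the other 11 genes summed to 21.6 to 39.5 TPM in controls and 588 to 657 TPM after treatment. Of 10 measured adipocyte markers 0 were called by edgeR, and 0 had an unadjusted p below 0.05, while all 10 had a positive log2 change, with a median of 0.73. Car3 (Ca3), a carbonic anhydrase that muscle also makes, was the marker whose groups did not overlap, at 270, 25.7 and 74.4 TPM in controls and 663, 531 and 306 TPM after treatment (log2 change 1.82, SE 0.80). The sum of the listed adipocyte markers was 2285 to 2898 TPM in controls and 3359 to 3668 TPM after treatment, most of it Fabp4, and Plin1, which coats the lipid droplet of fat cells, stood at 4.84, 1.30 and 3.98 TPM against 22.4, 1.94 and 5.74 TPM. DST-MNs 2 had the lowest Adipoq of the 6 libraries, 7.41 TPM, with 83.8 TPM of Scd and 26.9 TPM of Fasn. Control 1 had the highest Adipoq of the controls, 35.9 TPM, with 19.0 TPM of Scd and 6.77 TPM of Fasn, the lowest Fasn value of all. DST-MNs 1 had the highest Adipoq, Scd and Fasn of the 6 libraries, at 131, 115 and 40.0 TPM. Among the controls, Scd had the same order as Adipoq, but not as the sum of the listed adipocyte markers. The keratinocyte genes Krt14 and Krt5 stood at 1913 and 1477 TPM in DST-MNs 1, the library highest for most of the lipogenic genes, and at 119 and 76.9 TPM in DST-MNs 2. The part of sebaceous glands, of fat tissue and of epidermis in the values of Fasn and Scd was not tested. Macrophage markers summed to 3150 to 4367 TPM in controls and 3478 to 6060 TPM after treatment. Of these, 1 of 8 was called lower, Cd163, beside 0.118% of all genes tested.

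**Figure D4:**
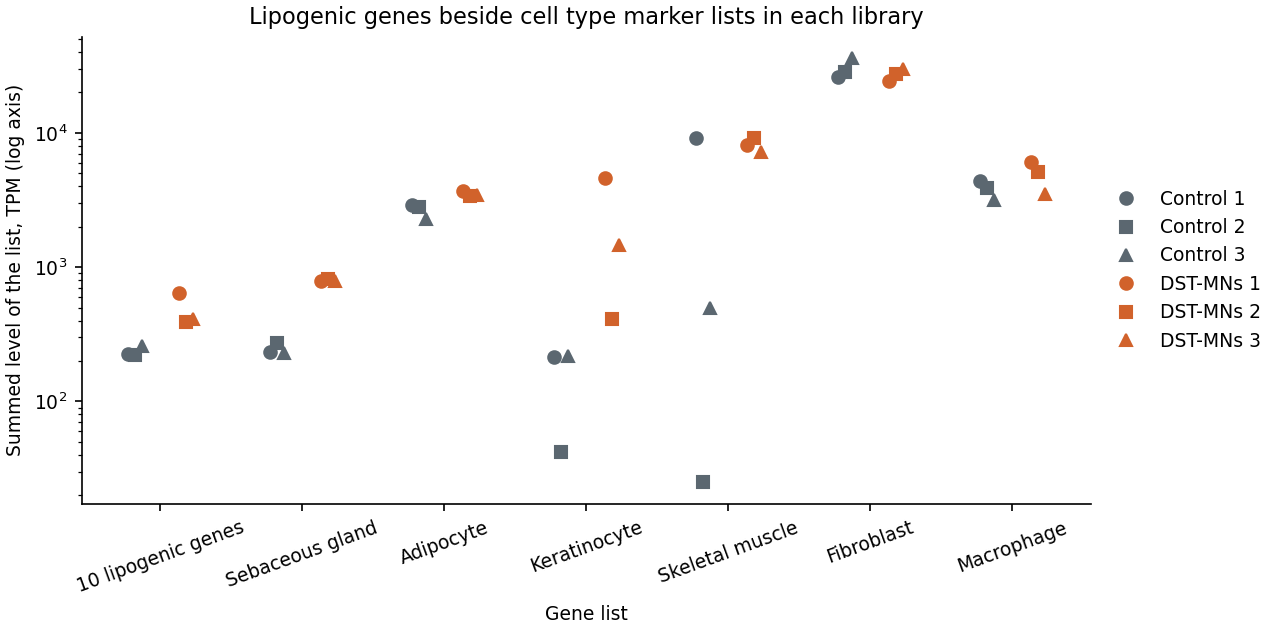
Summed TPM of the 10 lipogenic genes and of 6 marker lists in each library, on a log axis, controls in grey and treated wounds in orange. The lipogenic, sebaceous, adipocyte and keratinocyte sums are above the controls in all treated libraries. The muscle sum of control 2 and control 3 lies far below the other 4.

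**Figure D5:**
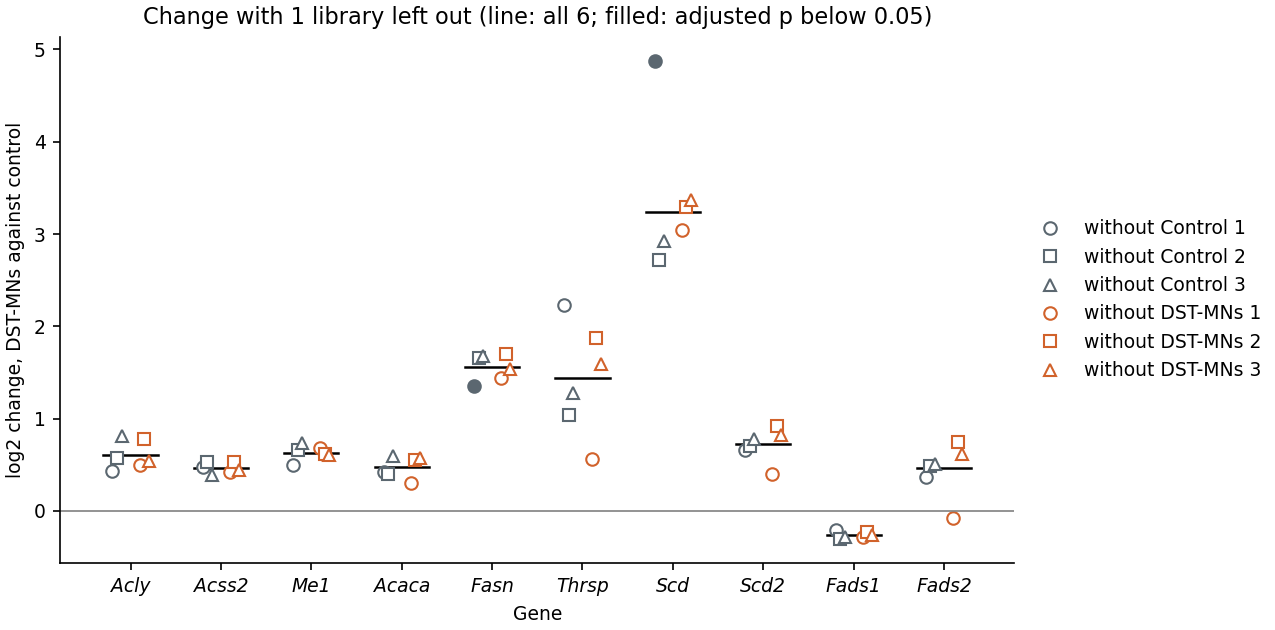
Log2 change of each of the 10 genes with all 6 libraries (lines) and with each library left out (points; filled where the adjusted p is below 0.05). Fasn and Scd are called when control 1 is left out; Fads2 turns below 0 without DST-MNs 1.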

How the data were processed

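Total RNA from dorsal wound tissue was extracted with TRIzol and made into messenger RNA libraries, which were read in pairs on a DNBSEQ-T7 machine, per the labels' protocols. Groups came from the sample titles (3 control, 3 DST-MNs), and columns were matched to samples by library name. As deposited, the authors' estimated counts per gene carry no scaling, and 90.5% to 91.4% of them are whole. The TPM values deposited by the authors sum to 1000000 in a library within rounding. The FPKM values deposited by the authors served as an alternative for shares. The normalised counts deposited by the authors, a signal in which, by its values, each library is divided by 1 factor, were not used. The submitters' processing notes name the build mRatBN7.2. Aligner and counter: not given in the sources used here.

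Estimated counts were rounded before fitting. Genes that passed filterByExpr (minimum count 10) were scaled with TMM factors and tested over 14427 genes with the quasi-likelihood test of edgeR 4.0.16 (R 4.3.3). The Benjamini-Hochberg adjusted p had to be below 0.05. Standard errors are the log2 change over the root of F, and 95% intervals were made from them. Shares were compared with an exact permutation test over libraries. Alternatives used DESeq2 1.42.0, limma 3.58.1 (voom, and a trend fit on log2(TPM + 1) where the mean TPM reached 1), other scalings and filters, a block on the replicate number, and each library left out. The fit was tested on simulated data, with changes set in genes above the median level. It called 23 of 100 genes set 2-fold higher and 96 of 100 set 4-fold higher, with 9 false calls. Of 145 list entries, 142 were matched by symbol and 3 through the RefSeq table.

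The labels call the libraries biological replicates and name no animals, so p-values measure the spread between these samples. The genes and lists were chosen with earlier results of these data known. All 10 genes were named. From each list up to 4 genes with the smallest p and any called gene could be named, with Srebf1, Mlxipl, Nr1h3, Insig1, Acacb, Elovl6, Slc25a1 and the defining markers Mc5r, Awat1, Adipoq, Plin1, Krt14 and Krt5 always open to naming. Col1a1, Fabp4, Plin2, Cd163, Krt1 and Krt15 were mentioned beside their lists. Another gene that the rule names is not reported here.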

Additional observations from a re-analysis of the deposited data

How the results depend on the processing

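The number of the 10 genes called was 0 with DESeq2 size factors, with at least 10 counts in every library, with limma-voom and with the replicate block, 4 with the DESeq2 Wald test, and 0 to 2 with each library left out, 2 of them, Fasn and Scd, without control 1. It was 1, Fasn, with upper-quartile factors, total counts, no count filter and limma on log2(TPM + 1). The adjusted p of Fasn was 0.0524 with DESeq2 size factors, 0.0624 with the stricter filter, 0.0519 with voom and 0.0834 with the replicate block. Called genes of the pathway lists, 3 in all, numbered 5 with total counts and on log2(TPM + 1), 8 with the DESeq2 Wald test, 1 with the stricter filter and 1 to 7 with each library left out, the highest without control 1. The log2 change of Fads2 ran from -0.078 (without DST-MNs replicate 1) to 0.74 (without DST-MNs replicate 2), and no other of the 10 genes changed sign in any of the 15 alternatives. The count of all called genes was 112, and it was 1018 with the DESeq2 Wald test, 38 with the stricter filter and 14 to 402 with a library left out, again the highest without control 1. In all 3 shares the direction held with read counts, with FPKM and with each library left out. Same-numbered libraries deviated together weakly, with correlations of -0.06, 0.06 and 0.14 across genes. Control 1 correlated best with DST-MNs 2 (0.10), while control 2 and control 3 did so with the treated library of their own number. Correlations this weak cannot decide whether the numbers pair the samples, and the main fit took the samples as unpaired. With 3 libraries a group, Scd, Thrsp and Fads2 had the widest intervals, although they had at least 48, 37 and 290 counts in every library. Causes of these shifts were not tested.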
